A study of Mus musculus with 6 samples.

Results

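Olfactory receptor genes lie in dense clusters on mouse chromosomes 7, 9 and 17, and 269 array regions in 4 windows over such clusters are described here, of 21987 regions on the array. The windows were chosen by position on the mouse genome build mm9. The proximal window on chromosome 7 ran from 109600000 to 110900000 and held 72 regions, and the distal window on that chromosome ran from 113400000 to 115900000 and held 72. The window on chromosome 9 ran from 38000000 to 40000000 and held 88 regions, and that on chromosome 17 ran from 37400000 to 38400000 and held 37. A region was a run of at least 3 probes whose starts lay at most 1000 bp apart. The 4 windows held 2022 probes that were not controls. Of these, 6 had a spot flag and were left out, 3 lay in no region, and 2013 made up the regions.

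The liver of mouse offspring was examined at 32 weeks of age, with 3 arrays for offspring of dams on a chromium-restricted diet and 3 for offspring of dams on a control diet. On each array, DNA immunoprecipitated as methylated (MeDIP) was labelled red with Cy5 and input DNA of the same group was labelled green with Cy3. The log2 ratio of red over green, centred on the median of all probes of the array, is called the level below, and a higher level is taken as more methylated DNA. The labels give no strain, sex or litter, and the extraction label names fat where the tissue label names liver. Nothing says that the arrays came from separate litters, so p-values measure the spread between these samples only. The tissue could not be checked against cell type markers, since the files name positions and no genes. For the same reason, the label of the windows rests on their positions, and no probe was matched to a receptor gene.

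Olfactory receptors are G protein-coupled receptors that detect odorants. An olfactory sensory neuron expresses 1 receptor gene from 1 allele and keeps the other receptor genes silent, and most of these genes are not known to be active in liver. The genes are short, stand close together in arrays that arose by duplication, and have promoters poor in CpG dinucleotides, the main site of DNA methylation in mammals. The antibody of a MeDIP experiment captures a fragment better the more methylated cytosines it carries, so a CpG-poor promoter can give little signal even where its few CpGs are methylated.

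In the RefSeq annotation of a later build (GRCm38.p6), chromosome 7 held 239 protein-coding olfactory receptor genes (symbols beginning with Olfr), chromosome 9 held 130 and chromosome 17 held 51. The longest run of such genes with no other protein-coding gene between them held 42 genes on chromosome 7, 40 on chromosome 9 and 30 on chromosome 17. The run on chromosome 17 stood between H2-M2, a class I gene of the major histocompatibility complex, and Esp36. Over the 250 bases before the gene start, the 354 receptor genes of these chromosomes that had a sequence held a median of 1 CG dinucleotide, and 45.8% held none. The median over the other 16548 protein-coding genes was 10, and 5.31% of those held none. The median GC content was 34.8% for the receptor genes and 56.0% for the others. Whether the annotated gene starts are the starts of transcription was not checked. To show what such DNA looks like, the receptor gene on each chromosome whose CG number was the median (the lowest gene identifier among ties) is printed 5′ to 3′, with CG in capitals. These 3 were not matched to array regions, and their coordinates are on GRCm38.p6, not on mm9.
Olfr17, chr7:107097217-107097466, plus strand: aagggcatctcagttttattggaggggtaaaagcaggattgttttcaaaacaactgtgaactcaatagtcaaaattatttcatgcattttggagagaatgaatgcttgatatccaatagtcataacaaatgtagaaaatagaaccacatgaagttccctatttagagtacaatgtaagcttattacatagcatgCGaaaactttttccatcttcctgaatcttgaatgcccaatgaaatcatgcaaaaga
Olfr885, chr9:38061072-38061321, plus strand: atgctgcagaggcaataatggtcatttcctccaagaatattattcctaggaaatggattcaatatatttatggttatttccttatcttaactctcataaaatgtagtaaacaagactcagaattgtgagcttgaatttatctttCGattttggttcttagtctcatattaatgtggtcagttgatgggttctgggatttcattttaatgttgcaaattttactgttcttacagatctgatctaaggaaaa
Olfr132, chr17:38131191-38131440, minus strand: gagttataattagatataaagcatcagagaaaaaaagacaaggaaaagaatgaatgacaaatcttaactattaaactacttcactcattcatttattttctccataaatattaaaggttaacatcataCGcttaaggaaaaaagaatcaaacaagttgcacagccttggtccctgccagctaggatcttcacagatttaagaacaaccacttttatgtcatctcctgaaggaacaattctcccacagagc
Each of the 3 stretches held 1 CG in 250 bases.

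Signals over the receptor windows were dim in both channels. The median background-subtracted input signal of the member probes on arrays 1, 2 and 3 was 19.9, 32.6 and 15.4 scanner units after chromium restriction, and 40.0, 12.8 and 21.5 among controls. Over all other probes the same medians were 53.5, 84.6 and 46.6 after chromium restriction and 99.2, 38.6 and 61.1 among controls. The member median was thus below the median of the other probes on every array. In the immunoprecipitated channel it lay between 27.0 and 41.4 over the 6 arrays, against 99.9 to 145 for the other probes. No member spot was saturated.

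Only 784 of the 2013 member probes (38.9%) stood well above background for red and green alike on each of the 6 arrays, against 67.8% of probes in all other regions. The share was 44.2% in the proximal chromosome 7 window, 39.6% in the distal one, 34.9% on chromosome 9 and 37.6% on chromosome 17. A window of chromosome 2 from 85 to 90 Mb with other clustered receptor genes had 27.6%, below each of the 4 windows. Neither channel was well above background on any array for 459 of 2016 member probes (22.8%), against 5.40% of the other probes. The mean level of those 459 probes was -0.31 ± 0.12 (SD, n = 6 arrays). For 101 probes (5.01%) the input was well above background on all arrays and the immunoprecipitated signal on none. Their level, -2.75 ± 0.12 (SD, n = 6), is an upper bound. The opposite pattern, with the immunoprecipitated channel alone above background, was found for 29 probes (1.44%) with a level of 1.95 ± 0.13 (SD, n = 6), which is a lower bound. These classes are defined by the same signals as the levels and are given as a description.

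The dim signal was most marked at the middle of the member regions. Within 200 bp of a region's centre, the mean input was 3.61 on the log2 scale of scanner units (12.2 units) and it was 4.90 (30.0 units) at 600 to 800 bp from the centre. The centre lay below the outer part by 1.29 ± 0.048 in the input channel (log2; SD, n = 6 arrays) and by 1.42 ± 0.020 in the immunoprecipitated channel, on 6 of 6 arrays each. In all other regions the same steps were 0.047 ± 0.0038 and 0.058 ± 0.0013. The share of member probes so detected for both colours on each array was 21.9% within 200 bp of the centre and 50.8% at 600 to 800 bp. Probe length moved with position as well. The median length was 57 bases in member regions and 45 in all other regions, and 58.4% of member probes within 200 bp of the centre had 60 bases, against 31.8% at 600 to 800 bp and 13.6% near the centre of other regions. The part of probe length and base composition in the dim signal was not tested.

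The direction of the level with position turned with the signals used. Member probes had a mean level of -0.16 ± 0.039 within 200 bp of the centre, -0.24 ± 0.080 at 200 to 400 bp, -0.31 ± 0.10 at 400 to 600 bp and -0.27 ± 0.075 at 600 to 800 bp (SD, n = 6). The centre was higher than the outermost part by 0.12 ± 0.057 and was so on 6 of 6 arrays. These levels rest on the processed signals, which have a positive floor. From the background-subtracted signals of both channels, the ratio was lower at the centre than at 600 to 800 bp by 0.13 ± 0.050, on 6 of 6 arrays, so no direction is read from either. In all other regions the centre was lower by 0.0091 ± 0.0029 with the processed and by 0.012 ± 0.0032 with the subtracted signals.

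**Figure D1:**
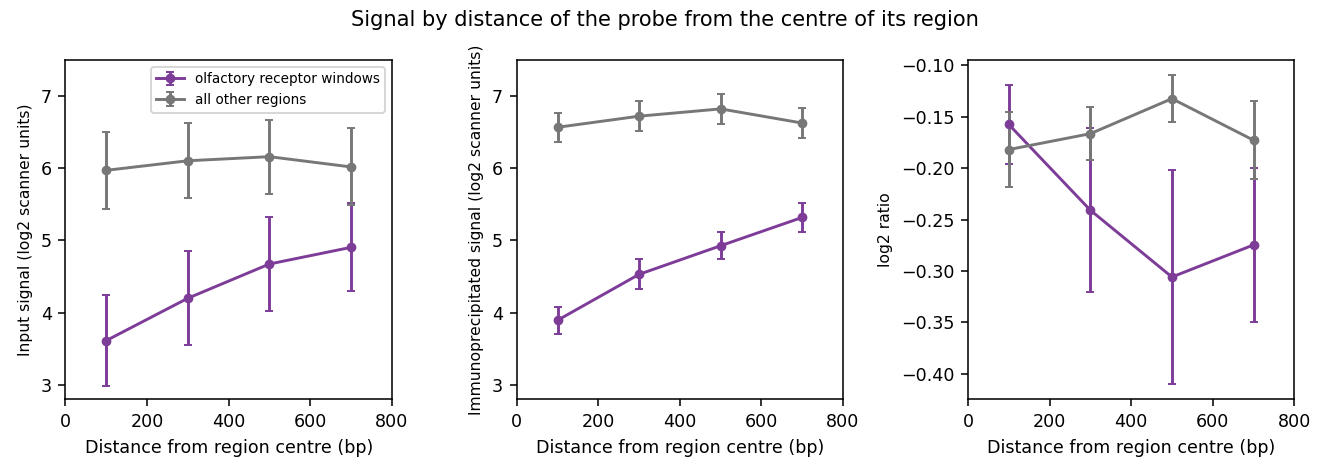
Mean input signal, immunoprecipitated signal (both log2 scanner units) and log2 ratio of probes against the distance from the centre of their region in bp, for the 269 receptor regions (purple) and all other regions (grey). Points are means and bars the SD over 6 arrays. Input over the receptor regions rises from 3.61 at the centre to 4.90 at 600 to 800 bp, while the other regions stay near 6.

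The mean level of the 269 regions was -0.25, -0.34 and -0.20 on arrays 1, 2 and 3 of the restricted group, and -0.35, -0.16 and -0.21 on arrays 1, 2 and 3 of the controls. All other regions averaged -0.16, -0.21 and -0.14 after chromium restriction and -0.22, -0.14 and -0.16 among controls, in the same order. The receptor regions were therefore lower on each of the 6 arrays, by 0.028 to 0.13. No test was made of this score over the members. With only probes well above background, the difference from the other regions was -0.0085 over the 137 regions that remained, and 3 of 6 arrays had the receptor regions lower. In the authors' deposited table it was -0.49 on the scale of that table, with 6 of 6 arrays lower. After normexp background correction it was -0.21, and with the median over a region's probes in place of the mean it was -0.13, on 6 of 6 arrays each. The size of the difference thus moved with the treatment of the signals, and its direction was not shared by all arrays when dim probes were left out. Dim probes are those not well above background for both colours on each array. Leaving them out selects on the immunoprecipitated signal, the numerator of the level, as well as on the input. It removed the 101 member probes with input alone above background (level -2.75) and the 29 with the immunoprecipitated channel alone (1.95). No conclusion on the direction is drawn from this filter.

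The lowest levels of the 269 regions together came from control array 1 and chromium-restricted array 2, which had the brightest inputs of the 6 arrays. The highest came from control array 2 and chromium-restricted array 3, which had the dimmest. Of the 269 regions, 202 (75.1%) were lower on the brighter pair than on the dimmer pair, with a mean difference of -0.16, against 62.3% and -0.077 in all other regions. Each pair held 1 array of each group. The part of input brightness in the levels was not tested, and the input is also the denominator of the ratio.

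The windows differed in level among themselves. The proximal chromosome 7 window had -0.20 ± 0.090 and the chromosome 9 window -0.20 ± 0.061 (SD, n = 6 arrays). The distal chromosome 7 window had -0.31 ± 0.072 and the chromosome 17 window -0.35 ± 0.10. The proximal chromosome 7 window exceeded the distal one by 0.11 ± 0.033 and the chromosome 17 window by 0.15 ± 0.032, on 6 of 6 arrays each. Chromosome 9 exceeded the distal chromosome 7 window by 0.11 ± 0.025 and chromosome 17 by 0.15 ± 0.053, also on 6 of 6 arrays. The 2 higher windows did not differ beyond their spread: the proximal chromosome 7 window was above chromosome 9 on 2 of 6 arrays, with a mean difference of -0.0047 ± 0.038. The 2 lower windows differed by 0.039 ± 0.042, with the distal chromosome 7 window above chromosome 17 on 4 of 6 arrays. With only probes well above background, chromosome 17 had 0.0064 over 18 regions and chromosome 9 had 0.030 over 41, above the proximal chromosome 7 window with -0.045 over 46 and the distal one with -0.38 over 32. Chromosome 17 thus left its place as the lowest window when dim probes were left out. That filter selects on the immunoprecipitated signal and kept 18 of the 37 regions of chromosome 17. The windows are then compared over other sets of regions, so the change of place cannot be assigned to dim signal. With all probes after normexp, chromosome 17 was not the lowest either, with -0.21 against -0.25 in the distal chromosome 7 window.

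**Figure D2:**
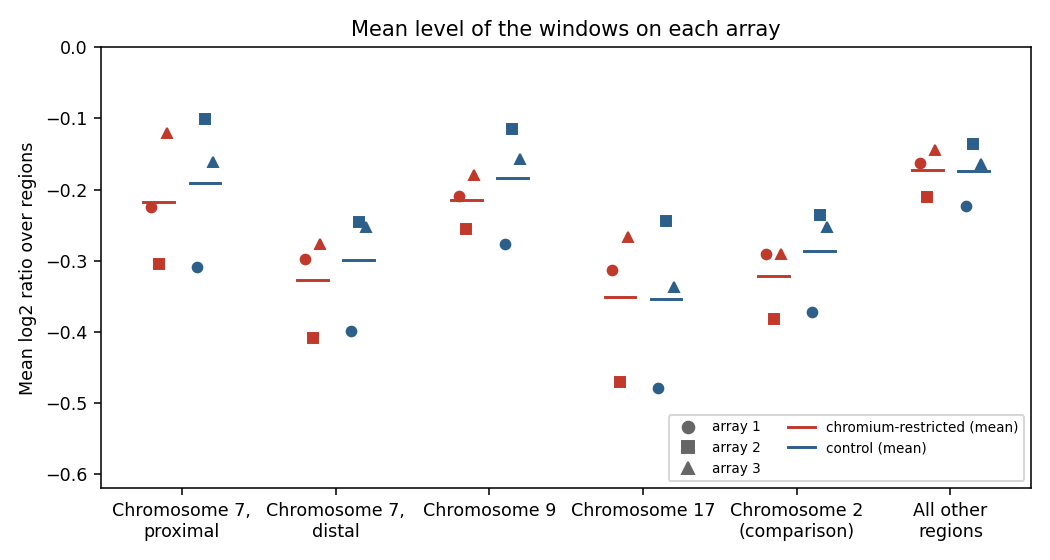
Mean log2 ratio over the regions of each window on each of the 6 arrays, with the chromosome 2 receptor window and all other regions for comparison. Symbols are arrays 1 to 3 of each group (red chromium-restricted, blue control) and lines the group means; within each window, chromium-restricted array 2 and control array 1 are the lowest of their groups.

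The chromosome 2 window had -0.30 ± 0.060 over 220 regions, between the higher and the lower pair of windows. A window on chromosome 7 from 20 to 24 Mb, which lies over vomeronasal type 1 receptor genes and not olfactory ones, had a mean level of -2.11 ± 0.25 over 112 regions, with 78 of them below -2. In the 4 olfactory windows, 1 of 269 regions was below -2. The input of that chromosome 7 comparison window was bright, with a mean of 125 units, where the olfactory windows had 21.6.

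Levels varied far more between regions than between arrays. After the array means were removed, the SD between the 269 regions was 0.47 and the residual SD between arrays was 0.16. The regions accounted for 90.3% of the sum of these variances, against 95.0% in all other regions. Pearson correlations between arrays over the 269 regions ran from 0.857 to 0.952, against 0.909 to 0.985 over all other regions. They averaged 0.896 within groups and 0.908 between groups. These correlations are across regions, which share the arrays and are not replicates.

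Of the 269 regions, 80 (29.7%) had a mean level above 0, against 41.1% of the other regions. On all 6 arrays, 41 were above 0 and 134 were below 0. A mean below -1 was found in 19 (7.06%, against 6.32% of the others) and a mean above 0.5 in 13 (4.83%, against 8.27%). The highest levels were thus scarcer than elsewhere, and levels below -1 about as frequent. A mean below -2 was found in 1 of the 269 regions and in 344 of the 21718 other regions. These shares are descriptions with no test.

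Neighbouring regions often differed in level. Over the 265 pairs of neighbours within a window, separated by a median of 18.1 kb, the levels differed by a median of 0.40, and 25 pairs differed by more than 1. The correlation between neighbours was 0.16 over all windows, and 0.19 in the proximal and 0.062 in the distal chromosome 7 window, 0.093 on chromosome 9 and 0.31 on chromosome 17, given as a description over regions measured on the same arrays.

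**Figure D3:**
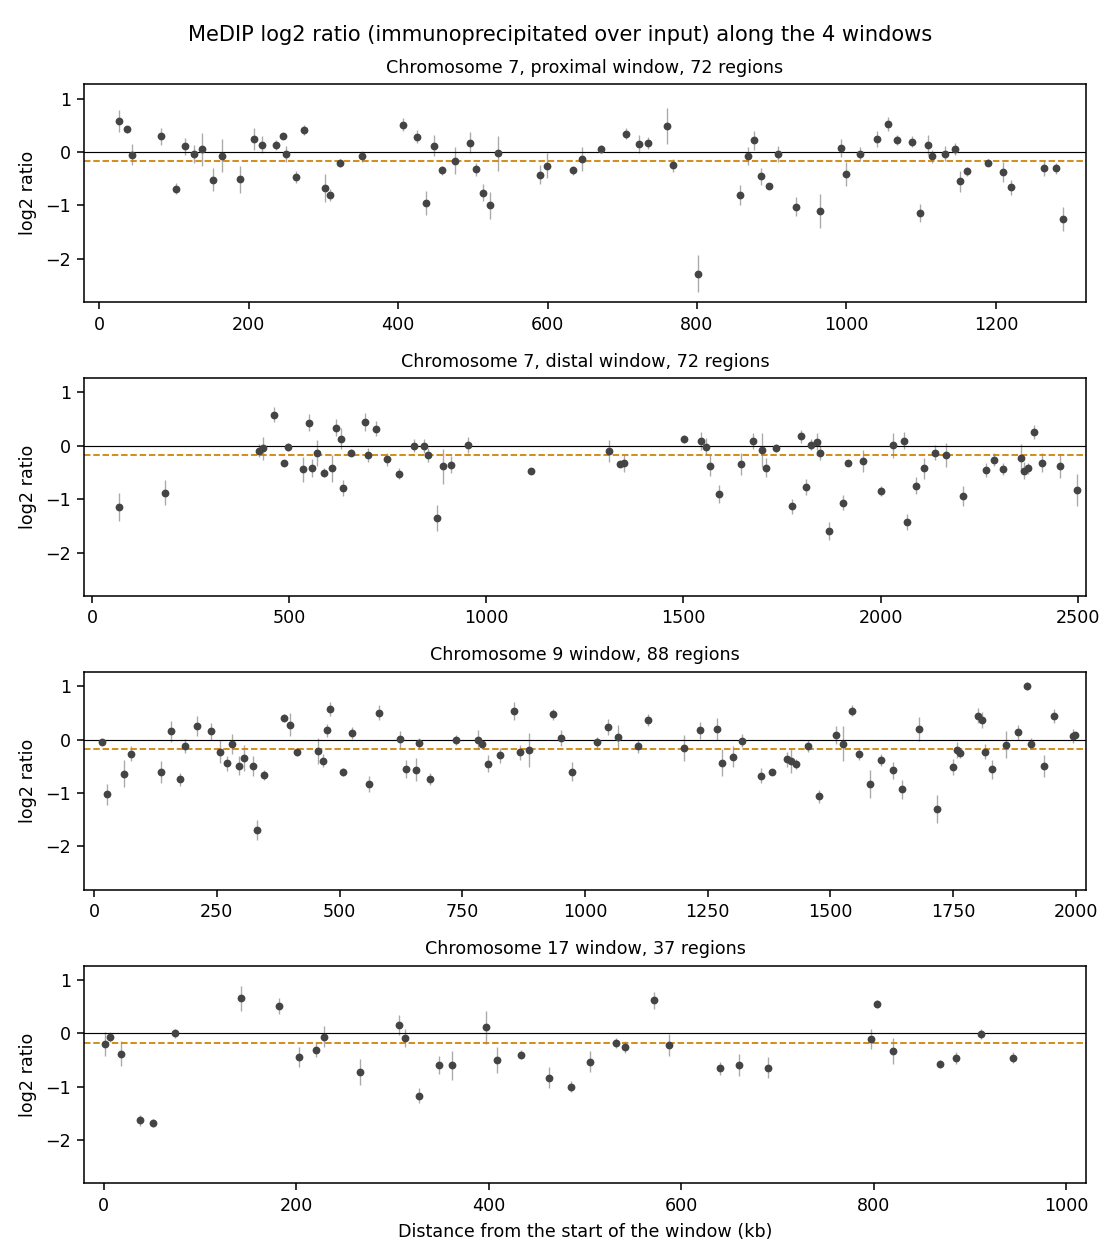
Level (mean log2 ratio over 6 arrays, bars 1 SD over arrays) of each of the 269 regions against its distance in kb from the start of its window. The solid line is 0 and the dashed line the mean of all other regions (-0.17); the lowest region, at -2.28, stands in the proximal chromosome 7 window, and the 2 lowest on chromosome 17, at -1.68 and -1.62, are neighbours.

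The lowest level belonged to chromosome 7 from 110400534 to 110402079, in the proximal window. It was -2.38, -2.54 and -2.02 on arrays 1, 2 and 3 of the restricted group and -2.66, -1.73 and -2.32 on arrays 1, 2 and 3 of the controls. It was low on every array, the groups overlapped, and the difference was -0.076 (SE 0.23). It also had the largest SD over the 6 arrays of all members, 0.34. Its input was bright, with a mean of 118 units against 35.3 in the immunoprecipitated channel. Among its 6 probes, that from 110401028 to 110401076 had a level of -4.67 and that from 110401222 to 110401276 had -4.28. Both cleared background for both colours on 0 arrays, with immunoprecipitated signals of 13.1 and 1.30 units. The 2 well-detected probes of the region averaged -1.50, and its level after normexp was -1.22. The probe from 110401628 to 110401681 had 0.22, with an input of 10.5 units. The neighbours on either side had -0.25, from 110367011, and -0.81, from 110457121, where the lower quartile of the window was -0.45.

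On chromosome 17, the region from 37450841 to 37452415 had -1.65, -1.64 and -1.75 after chromium restriction and -1.67, -1.57 and -1.78 among controls. The groups overlapped and the 6 values spanned a narrow range. Its mean input was 10.9 units and its immunoprecipitated signal 3.29. Its probe from 37451238 to 37451297 had -3.70 with an input of 40.1 units, while that from 37451713 to 37451772 had -0.14 with 1.37 units. None of its 8 probes was well detected, meaning well above background for both colours on each array. The neighbouring region on that chromosome, from 37436866 to 37438595, had a mean of -1.62 and 1 such probe of 9.

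On chromosome 9, the region from 38330018 to 38331787 averaged -1.68 over the 6 arrays, with an SD of 0.19 and overlapping groups. The region from 39716099 to 39717783 had a mean of -1.30, and 4 of its 8 probes were well detected. Over those probes its mean was -1.98. In the distal chromosome 7 window, the region from 115268295 to 115270017 averaged -1.60 with 0 of 7 such probes. That from 115466707 to 115468422 averaged -1.43 with 2 of 8, whose own mean was 0.36. The probes of this region with the brightest inputs, 130 and 113 units, were not among those 2. They had levels of -3.26 and -5.20, with immunoprecipitated signals of 25.5 and 5.08 units. The second lowest of the proximal window lay from 110889348 to 110891042 and averaged -1.25.

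At the upper end, chromosome 9 from 39900644 to 39902431 had the highest level of all members. It was 0.98, 1.11 and 0.96 on arrays 1, 2 and 3 of the restricted group and 1.01, 0.89 and 1.05 on arrays 1, 2 and 3 of the controls. The arrays lay close together, the groups overlapped, and the difference was 0.033 (SE 0.082). The immunoprecipitated signal averaged 145 units against 38.8 for the input, and all 7 probes had a mean level between 0.35 and 1.64. It remained positive in the authors' deposited table, with 0.73 on the scale of that table, and after normexp, with 0.51. Over its 5 well-detected probes the level was 0.85, and it was 0.55 over the 3 of them that still formed a region, with the arrays centred anew, when dim probes were left out.

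The second highest on chromosome 9, from 38480568 to 38482165, averaged 0.57 (5 of 8 probes well detected). On chromosome 17 the highest levels were 0.66, from 37541614 to 37542745, and 0.62, from 37970556 to 37972349. In the proximal chromosome 7 window they were 0.59, from 109625919 to 109627153, and 0.52, from 110654964 to 110656658. In the distal one they were 0.58, from 113859364 to 113861072, and 0.45, from 114091330 to 114092305. The regions from 110654964 and 114091330 had -0.13 and -0.18 in the authors' deposited table, and the other 6 highest were above 0 there. After normexp, all 16 of the highest and lowest levels kept their sign but lay nearer to 0, with the lowest regions from -1.22 to -0.68 and the highest from 0.015 (from 114091330) to 0.51.

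The comparison between the groups asked whether chromium restriction of the dams went with a change in DNA methylation of the offspring's liver. With limma and Benjamini-Hochberg adjustment over all 21987 regions at 0.05, 0 of the 269 receptor regions differed between the groups (0% of all regions were called). The lowest adjusted p was 1.0. At an unadjusted p under 0.05 there were 8 (2.97%), where 0.896% of all regions reached this level. When no region differs, this threshold is set to pass a share of 0.05, and both shares lay below it. Of the 8, the chromium-restricted values were higher in 3 (0.409% of all regions were higher at this level) and lower in 5 (0.487% of all regions were lower). In the chromosome 2 window there were 12 of 220, all with lower values. Of the 2016 member probes, 0 passed the adjusted threshold (0% of all probes), and 61 (3.03%) had an unadjusted p under 0.05, against 1.30% of 174278 probes. Both shares of probes were below 0.05 as well. Of these 61, 29 had higher values (0.685% of all probes) and 32 lower values (0.612% of all probes). They lay in 54 regions, with 8 of the 61 in the 8 regions that reached this level, and at most 3 in a single region. The median SD of a region over the 6 arrays was 0.15 among members and 0.11 among all other regions, so the member regions varied more between arrays.

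The groups were fully separated in 16 of the 269 regions (5.95%), where 4.44% of all regions were. The values after chromium restriction were higher in 5 of them (2.49% of all regions were separated this way) and lower in 11 (1.95% of all regions). With 3 arrays a group and no difference, full separation in either direction has a probability of 0.1. The shares of 5.95% and 4.44% lay below it. Single probes were separated in 101 of 2016 cases, where 4.27% of all probes were, with 45 higher (2.13% of all probes) and 56 lower (2.14% of all probes). A negative difference was found in 160 of 269 regions (59.5%, against 47.5% of all regions), and the median difference was -0.030, against 0.0040 over all regions. The 95% confidence interval of a member region reached a median of 0.26 above and below the estimate, against 0.22 over all regions. Differences of at least 0.3 in size were found in 3 of 269 members and in 49 of all 21987 regions.

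The mean level of the 269 regions was -0.26 ± 0.069 after chromium restriction and -0.24 ± 0.095 among controls (SD, n = 3 each), a difference of -0.025 that is smaller than either SD. Arrays of the same number shared a scan date, and each date is called a scan below. Within scans 1, 2 and 3 the difference was 0.094, -0.18 and 0.0067, so its sign differed between scans. Without chromium-restricted array 2 it was 0.013, and without control array 2 it was also 0.013, so that its sign also turned with single arrays. By window, the difference was -0.027 for proximal and -0.029 for distal chromosome 7, -0.031 for chromosome 9 and 0.0027 for chromosome 17. Slide position 2 held every array of the restricted group and slide position 4 every control, so position and group cannot be told apart.

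**Figure D4:**
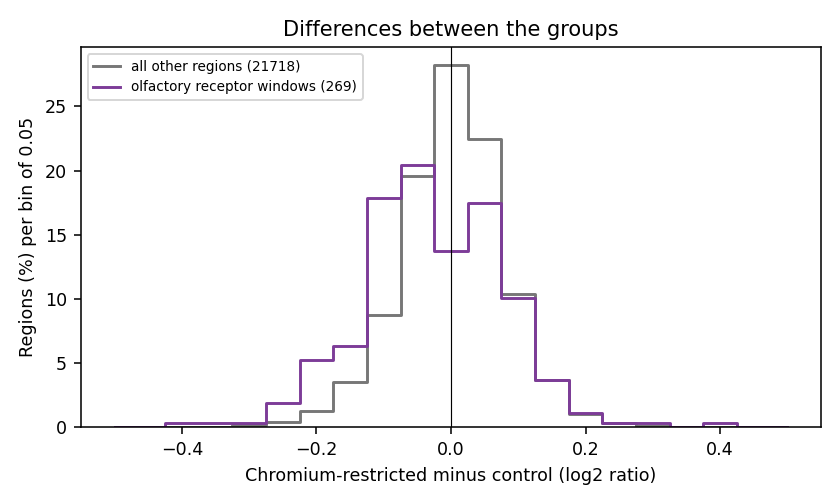
Share of regions (%) per bin of 0.05 in the difference, chromium-restricted minus control (log2 ratio), for the 269 receptor regions (purple) and all other regions (grey). The receptor regions spread wider, with a median of -0.030 against 0.0040 over all regions, and none of them passed the adjusted threshold.

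The regions below have the smallest unadjusted p in each direction, and each had an adjusted p of 1.0 in limma. After normexp, the 10 differences lay between -0.096 and 0.060. The smallest unadjusted p belonged to the region on chromosome 17 from 38219422 to 38220877. Its levels were -0.11, -0.17 and -0.14 on arrays 1, 2 and 3 of the restricted group and -0.62, -0.31 and -0.65 on arrays 1, 2 and 3 of the controls. The chromium-restricted arrays were all higher, with control array 2 nearest to them. With SE 0.10 and a 95% confidence interval from 0.15 to 0.62, the groups differed by 0.39 (limma unadjusted p = 0.00531). Its 7 probes differed by -0.21 to 1.03. The probe with 1.03, from 38220055 to 38220114, had an input of 3.46 units and an immunoprecipitated signal of 1.02 units, and cleared background for both colours on 0 arrays. The 2 probes that cleared it for both on 6 of 6 arrays differed by -0.060 and -0.21, against the direction of the region. In the authors' deposited table the difference of this region was 0.086, and after normexp background correction 0.042.

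Chromosome 7 from 113949488 to 113951159 had 0.57, 0.64 and 0.45 after chromium restriction and 0.41, 0.21 and 0.31 in controls. The groups did not overlap, and the difference was 0.24 (limma unadjusted p = 0.0231). Over its 4 well-detected probes it was 0.15, and 0.25 over the 3 of them that still formed a region when dim probes were left out. After normexp it was 0.060 (limma unadjusted p = 0.537). The difference was 0.095 in the authors' deposited table and also 0.095 with the median over probes. Chromosome 7 from 110617267 to 110618881 had 0.015, 0.16 and 0.029 against -0.19, -0.18 and -0.081. These groups did not overlap either, and the difference of 0.22 was -0.013 after normexp background correction and -0.0068 in the authors' deposited table. Chromosome 17 from 37436866 to 37438595 differed by 0.16 and chromosome 7 from 115097765 to 115098636 by 0.30, with unadjusted p in limma of 0.0605 and 0.151. The groups overlapped in the latter, whose difference within scans 1, 2 and 3 was 0.85, -0.35 and 0.40.

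Among the regions with lower values, chromosome 7 from 110708083 to 110709480 had 0.037, -0.11 and 0.047 after chromium restriction and 0.14, 0.32 and 0.37 in controls. The groups did not overlap, and all 6 probes had lower values after chromium restriction. With SE 0.090 and a 95% confidence interval from -0.49 to -0.074, the groups differed by -0.28 (limma unadjusted p = 0.0138). The difference was -0.19 over the 3 well-detected probes, -0.096 after normexp and -0.20 in the authors' deposited table. Agreement between the probes of a region chosen by their mean is no separate support.

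The difference of largest size among the members, -0.42 (SE 0.15; limma unadjusted p = 0.0244), was on chromosome 9 from 38885834 to 38887500. The levels were -0.72, -0.44 and -0.065 after chromium restriction and -0.099, 0.12 and 0.028 in controls. Chromium-restricted array 3 lay above control array 1, so the groups overlapped. All 8 probes had lower values after chromium restriction, by 0.019 to 1.33. In the probe with 1.33, from 38886712 to 38886771, chromium-restricted array 1 had -3.75 and the other 5 arrays lay between -0.53 and 0.65, at an input of 1.86 units. Without chromium-restricted array 1 the region's difference was -0.27. Within scans 1, 2 and 3 it was -0.62, -0.56 and -0.093. After normexp it was -0.067 (limma unadjusted p = 0.50) and in the authors' deposited table -0.061.

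In 2 further regions, most of the difference lay in a single probe. Chromosome 9 from 38621693 to 38623236 had a difference of -0.23, and -0.043 over the 6 probes other than that from 38622351 to 38622410. That probe had -2.79, -2.57 and -2.47 after chromium restriction and -0.99, -1.61 and -1.10 in controls. The groups did not overlap, and its difference of -1.37 (SE 0.21) was the one with the smallest unadjusted p among member probes in the limma fit across all probes (0.000257, limma adjusted p = 1.0). This probe was well above background in both channels on 0 arrays. Its input was 11.3 units and its immunoprecipitated signal 1 unit, the lowest value that channel means allow. Chromosome 7 from 109849545 to 109851242 had -0.22, and -0.048 without its probe from 109849545 to 109849590, which differed by -1.58. Chromosome 7 from 115109613 to 115111354 had a difference of -0.23, with overlapping groups.

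**Figure D5:**
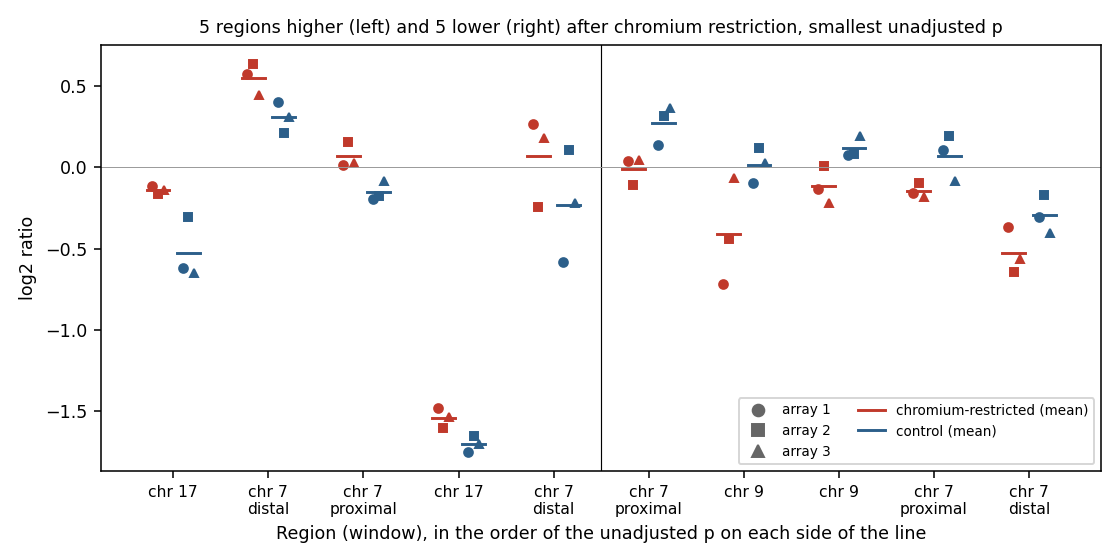
Levels (log2 ratio) of the 10 regions with the smallest unadjusted p in each direction, on each array. Symbols are arrays 1 to 3 of each group (red chromium-restricted, blue control) and lines the group means; the groups overlap in 3 of the 10 regions, and all 10 had an adjusted p of 1.0 in limma.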

How the data were processed

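Per the file headers, spots were quantified by Feature Extraction (Agilent, version 11.0.1.1) on a design with mm9 positions. The deposited processed signals are intensity values, background-subtracted and scaled by 1 linear dye factor per channel, per the file headers. Processed signals of dim spots have a positive floor (at least 15.2 for input and 20.8 for immunoprecipitated DNA in member probes), although 3.64% and 10.1% of these spots were not above 0 after background subtraction. No test drew on the deposited log10 ratios. The authors' series table, taken as log2 ratios though its base, centring and method are not stated, served as an alternative.

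The log2 ratio of processed signals was centred on each array's median over 174278 probes (360 with a spot flag and 5827 control spots were left out); no loess or quantile step was applied. A region's value is the mean over its probes; runs end at a window's edge. Regions and probes were fitted with limma 3.58.1 (lmFit, eBayes, group only) in R 4.3.3, adjusted over the whole table, and the fit was tested on simulated region values. The simulated noise was independent between regions, so that test cannot speak to shifts shared by the regions of an array. Figures used matplotlib 3.10.9. Channel means used background-subtracted signals set to at least 1 unit. With 3 arrays a group, that number limits the precision.

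The windows, lists and tests were chosen with earlier results of these data known. Named regions were the 5 with the smallest unadjusted p per direction, the 2 highest and 2 lowest per window, and the one with the largest SD over arrays; other single probes were named after their values were seen. Alternatives were normexp (offset 50, on median signals), quantile normalization, the authors' table, dim-probe and flag filters, region rules, the replicate block, array weights and leaving out each array. Same-numbered arrays shared a scan date. Their deviations from the group means correlated at 0.145, -0.591 and 0.197 over all regions. Array regions were not matched to genes, since the gene table is on a later build, so the parts of the plan that needed gene symbols were not applied. The files hold median and no mean spot signals, which normexp therefore used.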

Additional observations from a re-analysis of the deposited data

How the results depend on the processing

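Under each alternative other than array weights, 0 of the receptor regions and 0 probes passed the adjusted threshold in limma. With array weights, 39 regions and 759 probes did, beside 1653 regions and 53189 probes over the whole array; the weights did not converge, and the unadjusted counts were 106 and 1024. At that unadjusted level, the 8 regions and 61 probes became 0 and 1 after normexp, 4 and 25 in the authors' table, 1 and 5 with only probes well above background (137 regions), and 21 and 128 with the input signal as a covariate, an alternative chosen after seeing the data; the median over probes gave 4 regions. When single arrays were left out, the region count ran from 5 to 17 and the probe count from 53 to 105. The region count was 5 without chromium-restricted array 1 or without control array 3, 14 when chromium-restricted array 3 was dropped and 17 when control array 1 was dropped. Leaving out chromium-restricted array 2 gave 105 probes and control array 1 gave 97. The cause of these shifts was not tested.

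The mean level was -0.57 in the authors' table and -0.094 with only probes well above background. The difference from other regions was -0.21 after normexp, -0.49 in the authors' table, -0.0085 when dim probes were left out and -0.13 for the median over probes. In the authors' table the windows had -0.47 and -0.62 (proximal and distal chromosome 7), -0.57 (chromosome 9) and -0.64 (chromosome 17). With only probes well above background they had -0.045 (proximal chromosome 7), -0.38 (distal chromosome 7), 0.030 (chromosome 9) and 0.0064 (chromosome 17). After normexp they had -0.15 and -0.25 (proximal and distal chromosome 7), -0.18 (chromosome 9) and -0.21 (chromosome 17).

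Of the 10 named differences, 5 changed sign under another processing of the whole array or within a scan. That from 110617267 became -0.013 after normexp and -0.0068 in the authors' table. That from 37436866 became -0.000081 after normexp and -0.13 with the median over probes. That from 115097765 became -0.036 with the median and -0.35 within scan 2. That from 38621693 became 0.079 with the median, and that from 109849545 became 0.018 with only probes well above background. Over the well-detected probes of each region, an alternative chosen after seeing the data, the sign turned in 5 of the 10, from 38219422 (-0.13), 110617267 (-0.088), 115097765 (-0.055), 38621693 (0.035) and 109849545 (0.020).

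Fitting the replicate number as a block (same-numbered arrays shared a scan date) left 0 regions and 0 probes past the adjusted threshold. An unadjusted p under 0.05 was then found in 6 regions and 71 probes. The numbers are not known to pair animals, and not every array correlated best with its own number.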
